A study of Drosophila melanogaster with 3 samples.

Results

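Chromosome 4 of Drosophila melanogaster carried few Noc-GFP peaks, and its protein-coding genes had a peak summit at a start site less often than genes of the other arms. The genes described here are the 77 of its 80 protein-coding genes whose symbols do not start with RpS, ATPsyn or eIF, out of 13945 protein-coding genes on 6 arms. They were chosen by their chromosome, after earlier results of these data had shown a low promoter share there. That share, the percentage of genes with a summit no farther than 500 bp from an annotated transcription start site (TSS), is therefore given as a description with no test. The data were chromatin immunoprecipitation sequencing (ChIP-seq) of 3 biological replicates of 1 group. The animals were whole larvae of a transgenic line with noc fused to GFP at the C terminus, males and females pooled, and the antibody was directed against GFP. The age label reads 48 day and is given as found. No larvae without the tag were analysed here, so a peak alone does not show that Noc was bound. Each replicate list and the list of the 3 libraries pooled had 30000 peaks, and 7201 were left after filtering on the irreproducible discovery rate (IDR), which weighs how alike peaks rank between replicates. Peak lists carry no read totals, so depth is unknown, and the Wilson 95% intervals below cover counting error over genes or summits only.

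Chromosome 4, the dot chromosome or Muller element F, is the smallest of the fly and lies close to its centromere along its whole length. Genes and transposon remnants alternate on it, and its chromatin holds HP1a and methylated H3K9 although many of its genes are active in larvae. The protein POF binds the bodies of its active genes. Noc is a zinc finger protein of the NET family, which acts with the corepressor Groucho and is known from the ocelli, the tracheae and the distal parts of legs and wings. Among the genes of chromosome 4 are ci, the transcription factor of Hedgehog signalling, pan, the TCF factor of Wingless signalling, and the Pax6 genes ey and toy of eye development.

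The sequences under summits of chromosome 4 are shown first, because the values below turn on these few positions. They are on the plus strand of dm6, from the RefSeq copy of that assembly, within 50 bp of the summit and with bases of annotated untranslated regions left off. Capitals mark any of 8 words searched in both directions. The first 3 lie at IDR summits, and the other 4 at summits that ranked within the first 7201 of at least 1 replicate list and were in neither the pooled nor the IDR list.
ci, 2273 bp upstream, chr4:59264-59364: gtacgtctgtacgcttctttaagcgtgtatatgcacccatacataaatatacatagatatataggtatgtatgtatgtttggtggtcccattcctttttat
zfh2, 3907 bp upstream, chr4:497853-497953: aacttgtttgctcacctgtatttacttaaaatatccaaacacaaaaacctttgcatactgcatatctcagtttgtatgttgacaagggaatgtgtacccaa
apolpp and Zyx, chr4:1064745-1064822: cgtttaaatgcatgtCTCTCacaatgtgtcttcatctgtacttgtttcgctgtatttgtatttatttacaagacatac
gw, 167 bp upstream of its inner start site, chr4:660100-660200: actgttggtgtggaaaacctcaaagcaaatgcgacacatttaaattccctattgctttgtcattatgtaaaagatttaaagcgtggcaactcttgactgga
PlexA, 147 bp upstream, chr4:1027198-1027298: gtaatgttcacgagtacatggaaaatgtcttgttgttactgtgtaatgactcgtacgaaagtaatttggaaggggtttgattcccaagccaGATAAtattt
Sox102F, 179 bp upstream of an inner start site, chr4:807476-807576: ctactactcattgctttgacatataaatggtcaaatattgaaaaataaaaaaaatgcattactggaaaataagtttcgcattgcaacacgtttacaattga
PMCA, 91 bp upstream, chr4:358958-359058: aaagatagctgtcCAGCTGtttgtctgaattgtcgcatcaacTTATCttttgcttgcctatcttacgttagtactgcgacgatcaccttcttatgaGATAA

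Of the 77 genes of chromosome 4, 3 had a promoter summit in the IDR list, a share of 3.90% (Wilson 1.33% to 10.8%), against 3415 of 13865 genes of the other 5 arms, 24.6% (23.9% to 25.4%). The other arms lay close together, with 23.2% on 2L, 24.8% on 2R, 24.9% on 3L, 25.8% on 3R and 23.9% on X. The 3 genes were pan, apolpp and Zyx. In the pooled list 5 genes of chromosome 4 had such a summit, 6.49% (2.81% to 14.3%), against 45.7% of genes of the other arms. Counting the gene body with 2 kb to each side in place of start sites, the same 3 genes held an IDR summit (3.90%), against 42.3% of other genes.

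The replicates gave the same order. Among the first 7201 peaks by signal of each replicate list, 5, 2 and 9 genes of chromosome 4 had a promoter summit in replicates 1, 2 and 3. These are 6.49%, 2.60% and 11.7%, against 25.5%, 23.4% and 24.7% of genes of the other arms. The mean was 6.93% ± 4.56 on chromosome 4 and 24.6% ± 1.07 on the other arms (SD, n = 3). With all 30000 peaks of each list, 16, 9 and 14 genes of chromosome 4 had a promoter summit, or 20.8%, 11.7% and 18.2%, against 48.7%, 43.1% and 48.6% of the other genes. The share was lower on chromosome 4 in each replicate at both list lengths, which is what the genes were chosen on and adds no support of its own. The means over the full lists were 16.9% ± 4.68 and 46.8% ± 3.21 (SD, n = 3).

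**Figure D1:**
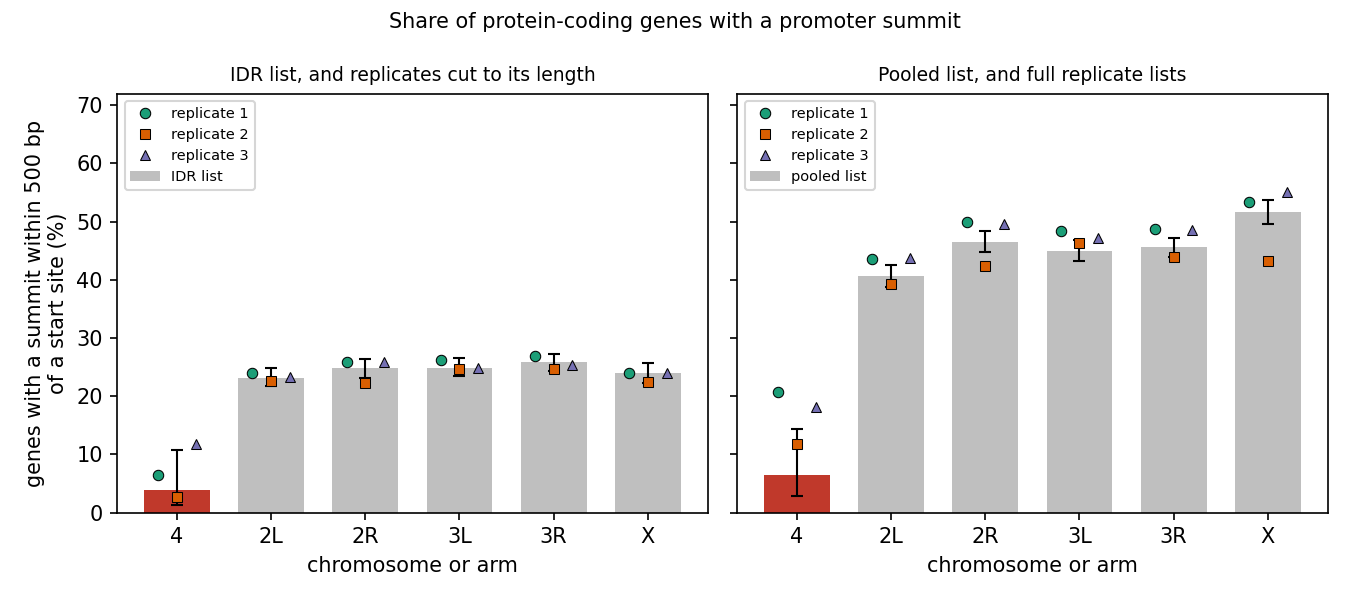
Share of protein-coding genes with a summit within 500 bp of a start site (percent, vertical axis) on chromosome 4 (red) and the other 5 arms (grey). Left, the IDR list (bars) and the first 7201 peaks of each replicate (points). Right, the pooled list (bars) and full replicate lists (points). Error bars are Wilson 95% intervals of the bars. Chromosome 4 is lowest in both panels, at 3.90% and 6.49% in the bars.

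Peaks were rare along the whole of chromosome 4, not at its start sites alone. The IDR list placed 5 summits on its 1348131 bp, or 3.71 per Mb, against 54.3 per Mb on the other arms, a density 14.6-fold lower. At the density of the other arms 73.2 summits would lie there. The pooled list placed 22, or 16.3 per Mb against 226 per Mb, which is 13.9-fold lower. In replicates 1, 2 and 3 the first 7201 peaks included 8, 4 and 9 on chromosome 4, or 5.19 ± 1.96 per Mb (SD, n = 3) against 54.3 per Mb. All lists were cut to 7201 peaks, so the count on the other arms was fixed by that on chromosome 4. On single arms other than chromosome 4 the SD was 0.720 to 2.89 per Mb (n = 3). The full replicate lists held 41, 49 and 42, or 32.6 ± 3.23 per Mb against 226 per Mb, and the density was 7.43-, 6.22- and 7.26-fold lower. In the first 7201 peaks of replicates 1, 2 and 3 it was 9.15-, 18.3- and 8.13-fold lower. The difference from the other arms was thus smaller in the full lists of each replicate. The values for the first 7201 rest on 8, 4 and 9 summits, so the size of this change is uncertain in each replicate. Protein-coding genes are less dense on chromosome 4, at 59.3 per Mb against 93.3 to 113 per Mb on the other arms. Per 100 protein-coding genes the IDR list placed 6.25 summits on chromosome 4 and 51.9 on the other arms. The part of gene density in the low number of summits was not tested.

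The share of summits that lay at promoters was not lower on chromosome 4 than on the other arms in any list, and in replicates 1 and 3 it was higher. Of the 5 IDR summits, 3 (60.0%, Wilson 23.1% to 88.2%) lay within 500 bp of a protein-coding start site, against 45.9% on the other arms. In the pooled list it was 8 of 22 (36.4%) against 30.2%. The full lists of replicates 1, 2 and 3 gave 48.8%, 28.6% and 61.9% on chromosome 4, against 32.6%, 26.4% and 32.8% on the other arms. Replicate 2 differed from the others here: 57.1% of its summits on chromosome 4 lay more than 2 kb from any protein-coding start site, against 29.3% in replicate 1 and 19.0% in replicate 3. On the other arms these shares were 48.5% in replicate 2, 42.5% in replicate 1 and 42.2% in replicate 3. Among the first 7201 peaks, 7 of 8, 3 of 4 and 9 of 9 summits on chromosome 4 were at promoters in replicates 1, 2 and 3 (87.5%, 75.0% and 100%), against 47.4%, 41.1% and 47.1% on the other arms. The 9 in replicate 3 include a summit exactly 500 bp from a start site of apolpp, at the limit itself.

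**Figure D2:**
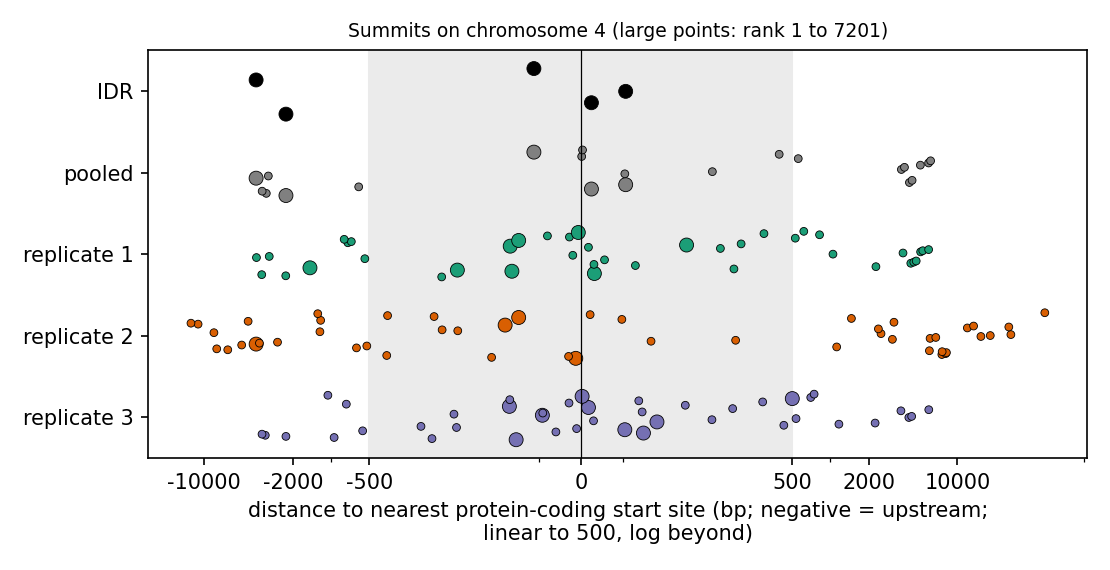
Distance of every summit on chromosome 4 to the nearest protein-coding start site (bp, horizontal axis, linear to 500 bp and logarithmic beyond, negative upstream), by peak list. Large points rank within the first 7201 of their list, and the shaded band is 500 bp to each side. Large points of the replicates fall mostly inside the band, and replicate 2 has most of its small points outside it.

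The 5 IDR summits of chromosome 4 were of middling to low rank. The highest had a signal value of 471 (the authors' own scale) and rank 2383 of 7201. It lay 25 bp inside the start site of a gene left out by symbol, so it counts for no member. The next was at pan, with signal 337 and rank 4001, at chr4:69432, 106 bp downstream of the first start site of the gene, in the 5′ UTR. The summit shared by apolpp and Zyx had signal 250 and rank 6072. Those upstream of zfh2 and ci had signals of 234 and 220 and ranks 6600 and 7103, and the ci summit was thus close to the end of the list. They make 3 groups when gaps of up to 20 kb are joined, one from 59314 to 69432 at ci and pan, one at zfh2 and one at apolpp. All 5 had the same signal and rank in the pooled list, where no other summit of chromosome 4 ranked within the first 7201. The IDR and pooled values of chromosome 4 are thus not separate evidence. In the full replicate lists 1 of the 5 had a summit within 100 bp in all 3 replicates, against 78.7% on the other arms.

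Inside 500 bp, the nearest IDR summits of members were 106 bp (pan), 111 bp (apolpp) and 206 bp (Zyx) from a start site. Outside it the next were 2273 bp upstream of ci, in an intron of asRNA:CR43957, 3907 bp upstream of zfh2, between genes, and 8909 bp upstream of Asator, which is the same summit as that of zfh2. In the IDR list no member lay near the threshold, and with 250 or 1000 bp in its place the same 3.90% of genes was counted.

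Gene by gene, 21 of the 77 members (27.3%) had a promoter summit in at least 1 full replicate list, against 57.8% of genes of the other arms. In all 3 lists it was 4 members (5.19%), pan, zfh2, Zyx and apolpp, against 34.4%. A further 10 members had one in exactly 2 lists and 7 in exactly 1. Replicates 1 and 3 shared 9 members (11.7%) that replicate 2 lacked, against 9.92% of genes of the other arms. Replicate 2 alone had 4 (5.19%) against 4.92%. Over all genes both shares were near the background. Among genes with a promoter summit in at least 1 full list they were 9 of 21 against 1375 of 8016, and 4 of 21 against 682 of 8016. Counted that way, both were larger on chromosome 4. No promoter summit was found for 56 members (72.7%) in any of the 5 lists, against 42.0% of genes of the other arms. Within the first 7201 peaks, 11 members (14.3%) had one in at least 1 replicate, against 32.8%, and none had one in all 3, against 16.3%.

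**Figure D3:**
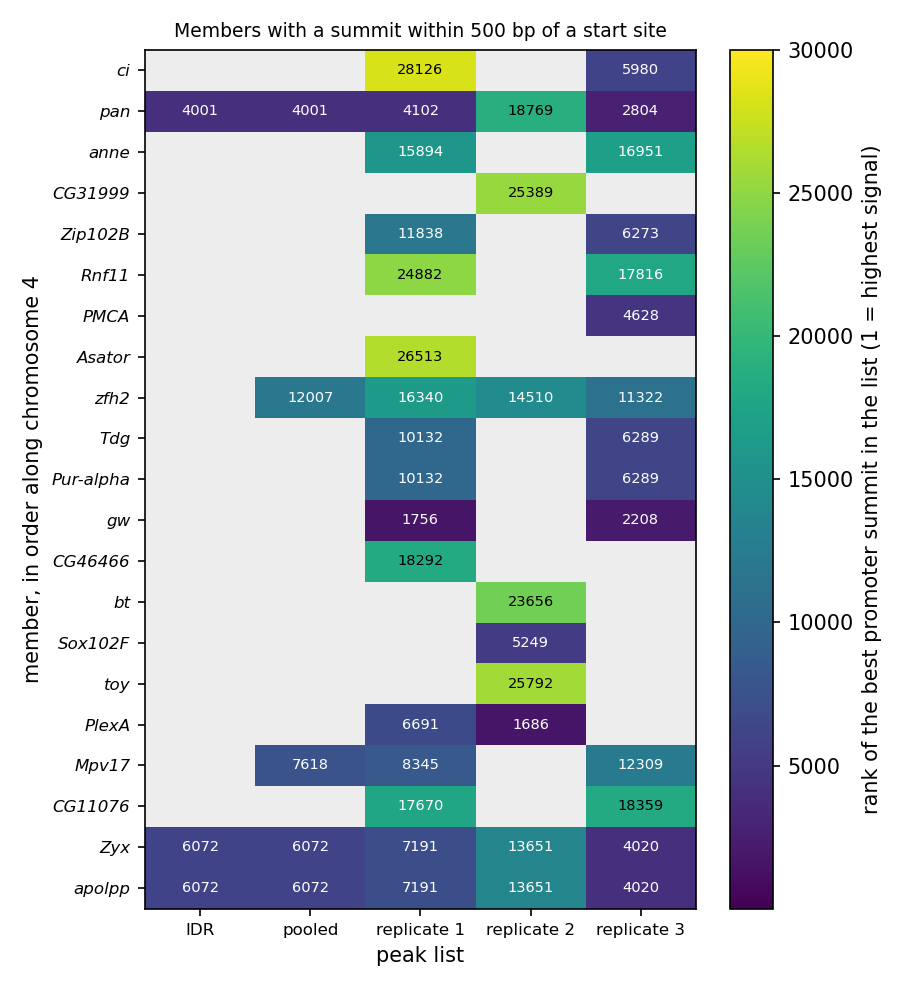
Rank of the best promoter summit (colour and printed number, 1 is the highest signal in the list) for the 21 members with a summit within 500 bp of a start site in any list, in chromosome order from top to bottom. Columns are the 5 peak lists, and grey means no promoter summit. The genes pan, zfh2, Zyx and apolpp are filled in all 3 replicate columns, while gw and PlexA have ranks of 1756 and 1686 in a replicate and are grey in the pooled and IDR columns.

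Of the 13 transcription factor genes in the list used here, 5 had a promoter summit in at least 1 full replicate list (ci, pan, zfh2, Sox102F and toy), 2 in all 3, and 1, pan, in the IDR list. Over all members, 27.3% had one in at least 1 full replicate list, against 57.8% of genes of the other arms. Neither this role list nor those below were tested against these shares. The best promoter summit of pan (4:69326 to 114270, plus strand) ranked 4102, 18769 and 2804 in replicates 1, 2 and 3. It was strong in replicates 1 and 3 and lay in the lower part of the list of replicate 2. The gene zfh2, for a zinc finger homeodomain protein, had a promoter summit of rank 12007 in the pooled list and of ranks 16340, 14510 and 11322 in replicates 1, 2 and 3. Its ranks were thus alike and moderate in every replicate, and no IDR summit lay at its start site. Further summits lay in or near the gene: the body and 2 kb to each side held 7 in the pooled list, the highest pooled count of any member, and 6, 8 and 4 in replicates 1, 2 and 3.

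The Hedgehog factor gene ci had a promoter summit of rank 5980 in replicate 3 and of rank 28126 in replicate 1, and none in replicate 2, so the replicates differed widely at this gene. Sox102F, a SoxD gene, had one of rank 5249 (signal 72.3) in replicate 2 and none in the others, and the Pax6 gene toy one of rank 25792 in replicate 2 alone. The second Pax6 gene, ey, had no promoter summit, but its body and flanks held 2, 3 and 1 summits in replicates 1, 2 and 3, of which 2 in replicate 2 lay in the body. The zinc finger gene dati held 3 body summits in replicate 2 and none in the others. Mitf, for a bHLH zipper factor of lysosome genes, held 1 in replicate 1, none in replicate 2 and 1 in replicate 3. The Pax2 gene sv, the homeodomain gene onecut, the forkhead gene fd102C, the Ski family gene fuss and pho, for a DNA-binding protein that recruits Polycomb complexes, had no summit in the body or within 2 kb in any list.

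Among 14 genes for ligands, receptors and signalling proteins, 2 had a promoter summit in a replicate and none in the IDR or pooled list. PlexA, a receptor for semaphorins in axon guidance, had rank 1686 (signal 166) in replicate 2, the strongest summit of that replicate on chromosome 4, and rank 6691 (signal 101) in replicate 1. Both had their summit at the same base, chr4:1027248, and replicate 3 had none. The kinase gene Asator had rank 26513 in replicate 1 only. The TGF-beta family ligand gene myo had 2, 0 and 1 summits in its flanks in replicates 1, 2 and 3, and none in its body. The related ligand genes mav and Actbeta, the receptor and ligand genes Eph and Ephrin, the second plexin gene PlexB, the Wingless coactivator gene lgs, the adaptor gene Crk, and CaMKII, PIP4K, Dyrk3 and RhoGAP102A had no summit in the body or within 2 kb in any list.

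Genes for synaptic and transport proteins gave 2 of 10 with a promoter summit in a replicate, both transporters of metal ions. PMCA, the calcium pump of the plasma membrane, had rank 4628 in replicate 3 and none in replicates 1 and 2. The zinc transporter gene Zip102B had ranks 11838 and 6273 in replicates 1 and 3 and no summit in replicate 2. Slip1 had 1 summit in its flanks, in replicate 1. The vesicle release genes unc-13, Cadps and Syt7, the glutamate receptor genes mGluR and Ekar, the GABA transporter gene Gat and dpr7 had none in any list. Long genes were among them: unc-13 spans 44508 bp and Cadps 40923 bp.

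Of 10 genes for the transcription machinery, RNA control and protein turnover, 3 had a promoter summit in replicates 1 and 3, none in replicate 2, and none in the pooled or IDR list. Over all members, 9 (11.7%) had one in replicates 1 and 3 but not 2, against 9.92% of genes of the other arms. The gene gw encodes GW182, which carries microRNA silencing. It had the strongest summit of replicate 1 on chromosome 4 (signal 239, rank 1756, 167 bp upstream of the inner start site) and also that of replicate 3 (signal 194, rank 2208, 169 bp upstream). The summits lay 2 bp apart, at 660150 and 660152. Tdg, for thymine DNA glycosylase, and its neighbour Pur-alpha, for a nucleic acid binding protein, start close together on opposite strands and shared their best promoter summit, of rank 10132 in replicate 1 and 6289 in replicate 3. Hcf, a cofactor of chromatin modifiers, had 2 summits in its flanks in replicate 3 alone, which were those nearest to PMCA. Rad23, which brings ubiquitinated proteins to the proteasome, had 1 in its flanks in replicate 1 and 1 in replicate 3. Neither had a summit in its body. Gyf, 4E-T, MED26, Arl4 and Arf4 had no summit in the body or within 2 kb in any list.

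The 5 genes for muscle, cytoskeleton and lipid transport gave 2 with an IDR promoter summit, which is 1 summit counted for both. The genes apolpp, for the precursor of the main lipoprotein of the hemolymph, and Zyx, for the focal adhesion protein zyxin, overlap on opposite strands. The IDR summit at chr4:1064795 lay 111 bp upstream of a start site of apolpp and 206 bp inside a start site of Zyx. The replicate summits nearest to these start sites ranked 7191, 13651 and 4020 in replicates 1, 2 and 3, and lay at 1064900, 1064928 and 1064909, so they lay close together and just over 100 bp from the IDR summit. The muscle gene bt, for the titin-like protein projectin, is the longest member (52075 bp). It had a promoter summit of rank 23656 and 7 summits in its body and flanks in replicate 2, against 0 in replicate 1 and 0 in replicate 3. The ankyrin gene Ank had 1 summit in its flanks, in replicate 3, and none in its body, and the kinesin gene Kif3C had none in either in any list.

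Among the 25 members outside these lists, Mpv17, for a protein of the inner mitochondrial membrane, had a promoter summit of rank 7618 in the pooled list, just past the last rank of the IDR list. Its ranks were 8345 in replicate 1 and 12309 in replicate 3, and replicate 2 had no promoter summit. In replicates 1 and 3 the ring finger gene Rnf11 had ranks 24882 and 17816, anne 15894 and 16951, and CG11076 17670 and 18359, all low in their lists. CG46466 had rank 18292 in replicate 1, and CG31999 rank 25389 in replicate 2. In replicate 2, yellow-h had 1 summit in its flanks and CG1674 had 2 in its body. A further 16 of these members, among them NfI, CaMKI, Taf3, ND-49, Cals and JYalpha, had none in any list.

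Summits on chromosome 4 were gathered at few places. With gaps of up to 20 kb joined, the 22 pooled summits fell into 5 groups and those of each full replicate list into 11. The summits of all 3 replicates together made 18 groups, of which the largest held 29, from Asator to the zfh2 gene (486665 to 528227), and the next 22, at ci and pan (56484 to 70113). Further groups held 13 at Zip102B and Rnf11, 12 from PlexA to CG11076, 11 from myo to bt and 10 at Zyx and apolpp. Counting gene bodies with 2 kb to each side, 32 members (41.6%) held a summit in at least 1 replicate, against 75.2% of genes of the other arms, and 45 (58.4%) held none. In all 3 replicates 6 members (7.79%) held one (pan, zfh2, ey, Mpv17, Zyx and apolpp), against 54.3%. Such summits need not share a place. At ey those of replicates 1 and 3 lay from 696794 to 696995, and those of replicate 2 from 709931 to 723173. At Mpv17 those of replicate 2 were the promoter summits of PlexA, where replicate 3 had none.

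Summits of replicate 2 on chromosome 4 seldom matched those of the other replicates. Of its 49 summits there, 6 (12.2%) had one of replicate 1 within 100 bp and 3 (6.12%) one of replicate 3, against 48.1% and 46.1% on the other arms. Of the 41 summits of replicate 1, 21 (51.2%) had one of replicate 3 within 100 bp, against 60.0% on the other arms, and 6 (14.6%) had one of replicate 2, against 48.1%. Replicates 1 and 3 therefore matched each other on chromosome 4 at a share near that of the other arms, while neither matched replicate 2 to that degree. Counted by genes, the size of the pattern depended on which genes it was counted over. Body and flank summits were found in replicate 2 alone for 7 members (CG31999, yellow-h, CG1674, dati, bt, Sox102F and toy). Over all members this was 9.09%, against 6.87% of genes of the other arms, a share near that background. They were found in replicates 1 and 3 but not 2 for 12 members (15.6%), among them ci, gw, myo and Mitf, against 7.83%. Among genes with such a summit in at least 1 replicate, replicate 2 alone held 7 of 32 members, against 952 of 10431 genes of the other arms. For replicates 1 and 3 but not 2 it was 12 of 32, against 1086 of 10431. Counted that way, both were larger on chromosome 4. Depth and the share of reads in peaks are unknown for these libraries, and their part in the difference between replicate 2 and the others was not tested.

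Strong peaks of single replicates on chromosome 4 often had no counterpart in the pooled list. Of replicate peaks within the first 7201, 3 of 8, 2 of 4 and 4 of 9 on chromosome 4 overlapped a pooled peak in replicates 1, 2 and 3, against 97.7%, 96.6% and 97.6% on the other arms. The mean was 44.0% ± 6.26 on chromosome 4 and 97.3% ± 0.626 on the other arms (SD, n = 3). The share was low among weaker peaks of that range too: for ranks 3601 to 7201 the counts on chromosome 4 were 2 of 6, 2 of 3 and 2 of 6, against 97.0%, 95.5% and 96.4%. The peaks of gw, found in replicates 1 and 3, and of PlexA, found in replicates 1 and 2, were among those with none. Of the peaks that replicates 1 and 3 shared within their first 7201, 2 of 3 on chromosome 4 overlapped a pooled peak, against 99.0% of 5093 on the other arms. The pooled and IDR shares of chromosome 4 genes therefore leave out sites that ranked high in 2 libraries. The replicate lists hold these sites, and their shares, on which the genes were chosen, are given above. The pooled call used a control alignment that was not analysed here, and how it bears on chromosome 4 was not tested.

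**Figure D4:**
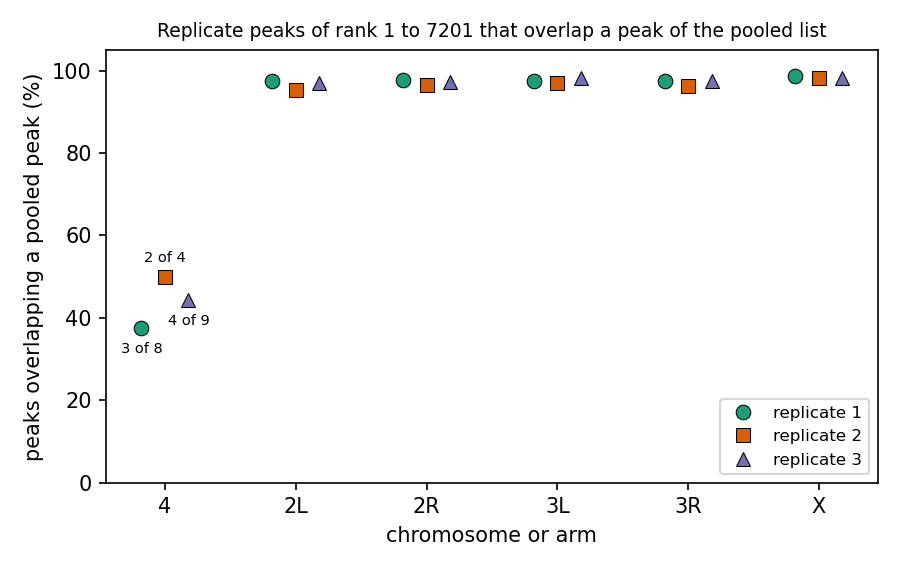
Share of replicate peaks within the first 7201 by signal that overlap a peak of the pooled list (percent, vertical axis), for chromosome 4 and the other 5 arms, 1 point per replicate. Labels give the counts on chromosome 4 (3 of 8, 2 of 4 and 4 of 9), where all 3 points lie far below those of every other arm.

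Members were longer than other genes, and on the other arms long genes had promoter summits more often than short ones (33.8% of genes over 3533 bp and 14.3% of those under 1465 bp). Their median length was 10426 bp against 2156 bp on the other arms, and they had 1.79 start sites on average against 1.40. Among genes over 3533 bp, 3 of 64 members (4.69%, Wilson 1.61% to 12.9%) had an IDR promoter summit, against 33.8% of other genes of that length. Among genes of 1465 to 3533 bp none of 10 members did, where 3 counts would make 30.0%, against 26.0%, so no difference was detectable there, and only 3 members were shorter. Among genes with 1 start site none of 40 members had a summit, where 3 counts would make 7.50%, against 18.1%. With 2 start sites it was 1 of 17 (5.88%) against 36.5%, and with 3 or more 2 of 20 (Wilson 2.79% to 30.1%) against 57.8%. The share was thus lower on chromosome 4 in each class with more than 10 members.

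Windows as long as chromosome 4 at the centromere-proximal ends of the other 5 arms gave low counts as well. They held 81 protein-coding genes, of which 8 (9.88%, Wilson 5.09% to 18.3%) had an IDR promoter summit, against 3.90% on chromosome 4 (1.33% to 10.8%), and these intervals overlap. All 8 lay among the 48 genes of the X window (16.7%), and the windows of the other arms held few genes: 21 on 2L, 6 on 2R, 6 on 3L and none on 3R, with no summit at any. IDR summits in the windows numbered 10, all on X. The density was 7.42 per Mb in the X window and 1.48 per Mb over the 5 windows, against 3.71 per Mb on chromosome 4.

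Base composition and repeats also differed along the chromosome. The GC share was 35.2% over chromosome 4 and 42.2% over the other arms, and within 50 bp of start sites 37.0% against 43.7%. At summits it was nearly equal: 36.6% at the 5 IDR summits against 36.5%, and 40.6% at the 22 pooled summits against 39.5%. Annotated transposons covered 24.8% of chromosome 4, with 420 copies per Mb, against 4.06% to 7.74% of the other arms. Summits of chromosome 4 that lay in transposons were 0 of 5 in the IDR list and 2 of 22 in the pooled list. In replicates 1, 2 and 3 they were 3 of 41, 7 of 49 and 2 of 42. The same count was not made for the other arms, so it is not known whether these are few. The part of transposons in the low number of peaks was not tested, and how uniquely reads align there is not given by the peak lists.

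Words that known factors bind were looked for in both directions around summits and start sites, up to 50 bp to each side. They were TATCGATA (DREF), CGATA (the BEAF-32 type, which also matches inside TATCGATA), GGTCACAC (M1BP), GAGAG (GAGA factor), GCCAT (Pho), TAATTA (homeodomain), GATAA (GATA) and CAGCTG (an E-box). Among the 22 pooled summits of chromosome 4, GAGAG was found at 5 (22.7%) against 12.4% on the other arms, and GATAA at 3 (13.6%) against 24.9%. CGATA was found at 3 (13.6%) against 14.4%, and TATCGATA at none, against 0.590%. At the 138 start sites of members TATCGATA was found at 6.52% against 4.46%, CGATA at 30.4% against 23.5%, and GGTCACAC at 2.17% against 4.70%. GATAA was found at 26.8% of them against 21.4%, and GAGAG at 11.6% against 12.7%. These are counts of letters over few summits, and none was tested.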

How the data were processed

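The labels describe ChIP-seq of GFP-tagged Noc, with sonicated fragments of 200 to 800 bp, on assembly dm6. Per the deposited notes, each library gave a replicate list and all 3 together the pooled list, each set against a control alignment, and the IDR list was made from those 4. Neither peak caller nor aligner is given in the sources used here. The authors deposited a signal score per peak, used only to rank within a list, a −log10 q value, not used, and a summit offset (other), added to the peak start.

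Genes and start sites came from Ensembl BDGP6 and sequence from RefSeq for the same assembly; every list ended within its chromosome lengths. Replicate lists were also ranked by signal and taken to the IDR length of 7201. Shares have Wilson 95% intervals, replicates mean ± SD, and zero counts a limit of 3 counts. Summits matched within 100 bp. The replicates are called biological by the labels. Members, gene lists and words were chosen with earlier results of these data known, so no test was run. Named genes follow a rule: genes with IDR promoter summits or most body summits, role list members, those nearest the threshold and the longest without a summit; others named have a summit in a replicate. Thd1 and Arf102F were looked up as Tdg and Arf4. Alternatives were other TSS distances, first TSS only, gene bodies, stronger peaks, other lists and peaks found in all replicates; full replicate lists were chosen after seeing the data. The values of 1 member are not reported here. The summit assignment was checked on simulated summits. Tools were matplotlib 3.10.9, scipy 1.17.1, pandas 2.3.3 and numpy 2.4.6 under Python 3.11.15.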

Additional observations from a re-analysis of the deposited data

How the results depend on the processing

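The promoter share of chromosome 4 genes stayed below that of the other arms under every alternative run. It was 2.60% with the first start site of each gene, 5.00% with the 3 genes left out by symbol added back, 0% to 1.30% when IDR peaks had to recur in both other replicates without replicate 1, 2 or 3, and 11.7% in the first 7201 peaks of replicate 3. In the full lists of replicates 1, 2 and 3, chosen after seeing the data, it was 20.8%, 11.7% and 18.2%. The difference, chromosome 4 minus other arms, was -20.7 percentage points, and ranged from -17.4 to -14.8 without replicate 1, 2 or 3. It was -16.6 and -24.9 with 250 and 1000 bp, -14.9 in the 3600 stronger IDR peaks, -39.2 in the pooled list, -13.04 in the first 7201 peaks of replicate 3, -38.4 for gene bodies with 2 kb, and -27.9, -31.4 and -30.4 in the full lists. IDR peaks found in all 3 replicates gave -9.87 within 50 bp and -15.7 within 250 bp. Such sets, and those without 1 replicate, were matched to the first 7201 peaks of each replicate list, and hold fewer peaks on every arm.

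The 3.71 summits per Mb rested on 5 summits. The value was 0.742 in the stronger IDR peaks (1 summit), 16.3 in the pooled list, 5.93 and 6.68 in the first 7201 of replicates 1 and 3, and 30.4, 36.3 and 31.2 in the full lists. It was 0 to 0.742 without replicate 1, 2 or 3, and 0 and 0.742 for peaks found in all 3 replicates within 50 and 250 bp. The promoter share of these summits (60.0%) was 100% in the stronger IDR peaks, for peaks found in all 3 replicates within 250 bp, and without replicate 2 or 3, each resting on 1 summit. It was 36.4% in the pooled list, 87.5%, 75.0% and 100% in the first 7201 of replicates 1, 2 and 3, and 28.6% in the full list of replicate 2. No summit was left without replicate 1 or within 50 bp in all 3 replicates, so no share exists there. These matches used the first 7201 peaks of each replicate. In the full lists, 1 of the 5 IDR summits of chromosome 4 had a summit within 100 bp in all 3 replicates. The cause of these changes was not tested. No paired analysis was possible because the replicates form 1 group.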
